A study of Mus musculus with 12 samples.

Results

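The clustered protocadherins are cadherin-family adhesion proteins encoded by 3 neighbouring gene arrays, *Pcdha*, *Pcdhb* and *Pcdhg*, on mouse chromosome 18. All rows of the count table with the symbol of a numbered *Pcdha*, *Pcdhb* or *Pcdhg* gene were taken, which gave 41 genes of 18903 in the table, namely 4 *Pcdha*, 15 *Pcdhb* and 22 *Pcdhg* genes. The rule used the symbol alone, and the arrays were picked for description with earlier results of these data known.

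Each gene of the arrays begins with its own promoter and a large variable exon that encodes the extracellular cadherin repeats. In the alpha and gamma arrays this exon is spliced to constant exons that all genes of the array share, whereas a *Pcdhb* gene is a single exon with no constant part. Neurons choose few of the alternate promoters at random and so acquire a surface identity that serves self-avoidance and synaptic matching, while the C-type genes at the end of the alpha and gamma arrays are used more constitutively. Astrocytes also carry the proteins, and gamma-protocadherins at contacts between astrocytes and neurons are known to promote synapse formation.

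mRNA was measured by RNA-seq in 12 primary astrocyte cultures of mice with or without a conditional deletion of *Rack7* (*Zmynd8*), which encodes a chromatin reader protein. Brains were taken at postnatal day 1, 6 or 8 (P1, P6 and P8), and each of the 6 groups of time point and genotype held 2 libraries that the labels call biological repeats. Libraries labelled WT came from hGFAP-cre::*Rack7*+/+ mice and libraries labelled cKO from hGFAP-cre::*Rack7* fl/fl mice, so all 12 carried the Cre transgene. The human *GFAP* promoter that drives Cre acts in embryonic neural stem cells, which give rise to neurons as well as glia, and the cultures were grown for weeks and shaken to remove microglia and oligodendrocyte-lineage cells before harvest.

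The count totals of the libraries ranged from 54413504 to 89183250. *Zmynd8* stood at 136 and 136 CPM (counts per 1000000 counts of the library) in the WT-labelled and at 213 and 216 CPM in the cKO-labelled libraries at P1, at 114 and 116 against 242 and 230 CPM at P6, and at 99.98 and 104 against 160 and 171 CPM at P8. Its count was the larger with the cKO label at P1, P6 and P8 alike, so this count did not check the genotype labels, and the immunoblots of RACK7 protein were not analysed here. The deletion removes exons 3 and 4, which make up 2.60% of the 6188 bases of its 24-exon transcript ENSMUST00000109269, and counts over the whole gene can say little about it. The 10 astrocyte markers were detected throughout, with sums of 2250.5 to 2296 (WT) and 2148 to 2196 CPM (cKO) at P1 and of 1594 to 1966 (WT) and 708 to 717 CPM (cKO) at P8. The summed level of 8 microglial markers was 1995 to 3991 CPM over all libraries, and 8 of 12 neuronal markers, *Rbfox3* and *Snap25* among them, were not analysed here.

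The 41 genes lie on the plus strand between 36997880 and 37841873 of chromosome 18 (GRCm38), a span of 844 kb. The annotation lists 58 numbered protocadherin genes in the 3 arrays, of which 10 *Pcdha* and 7 *Pcdhb* genes were not analysed here. The 15 *Pcdhb* genes are single-exon genes between 37294812 and 37524479, and they share no exonic base with each other except *Pcdhb21* and *Pcdhb22*, whose exons overlap by 455 bases. Each of the 4 *Pcdha* genes shares 2860 exonic bases, between 48.6% and 53.6% of its exonic length, with other *Pcdha* genes. In the 22 *Pcdhg* genes the shared part ranged from 31.5% to 66.8% of the exonic length. A read from these constant exons does not tell which gene of the array it came from. All 22 *Pcdhg* genes also share exonic bases with other annotated genes of the same strand, *Gm38182* among them. *Pcdha12*, *Pcdhga1*, *Pcdhga7*, *Pcdhga8*, *Pcdhga10*, *Pcdhga11*, *Pcdhga12*, *Pcdhgb7* and *Pcdhgc3* overlap annotated antisense genes, and whether counting used the strand is not given in these sources.

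Per kilobase of exon, *Pcdhgc3* had the highest level of the 41 genes at 47.4 CPM per kb over the 12 libraries. It encodes a C-type gamma-protocadherin that binds Axin1, and it stood at percentile 94.7 of all genes tested on this scale. *Pcdhgb8* (22.4 CPM per kb), *Pcdhga2* (17.0), *Pcdhgb2* (7.45) and *Pcdhgc5* (7.41) followed, but the first 3 of these differed widely between replicates. The *Pcdhb* genes were all under 2 CPM per kb, led by *Pcdhb17* at 1.80 CPM per kb, *Pcdhb22* at 1.43, *Pcdhb20* at 1.19 and *Pcdhb18* at 0.99. Of the alpha array, *Pcdhac2*, a C-type gene needed for the even spread of serotonergic axons, reached 1.24 CPM per kb and the 3 alternate genes *Pcdha9*, *Pcdha11* and *Pcdha12* 0.12 to 0.23 CPM per kb.

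The *Pcdhb* array carried the clearest pattern. Its 15 genes summed to 38.7 and 33.2 CPM in the WT-labelled and 38.2 and 32.4 CPM in the cKO-labelled libraries at P1. At P6 the sums were 42.9 and 42.4 against 30.7 and 31.1 CPM, and at P8 they were 119 and 91.7 against 39.2 and 40.5 CPM. The groups overlapped at P1 and separated at P6 and P8, where the WT mean was 1.38 and 2.64 times the cKO mean. *Pcdhb19*, *Pcdhb21* and *Pcdhb22*, 3 genes whose libraries of a group differed most or were at 0, were next left out. This choice was made after their values were seen. It brought replicate sums to within 1.10-fold of each other in every group, which follows from how the genes were picked. At P6 *Pcdhb19* and *Pcdhb22* were higher and *Pcdhb21* lower with the cKO label. Without these 3 genes the WT mean was 1.985 times the cKO mean at P6 and 2.74 times at P8. The 12 remaining genes then summed to 22.9 and 20.9 (WT) against 22.5 and 22.1 CPM (cKO) at P1, 37.5 and 37.6 against 19.4 and 18.4 CPM at P6, and 71.2 and 70.1 against 25.2 and 26.4 CPM at P8. In the WT-labelled cultures this sum was 3.22 times higher at P8 than at P1, and in the cKO-labelled cultures 1.16 times.

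**Figure D1:**
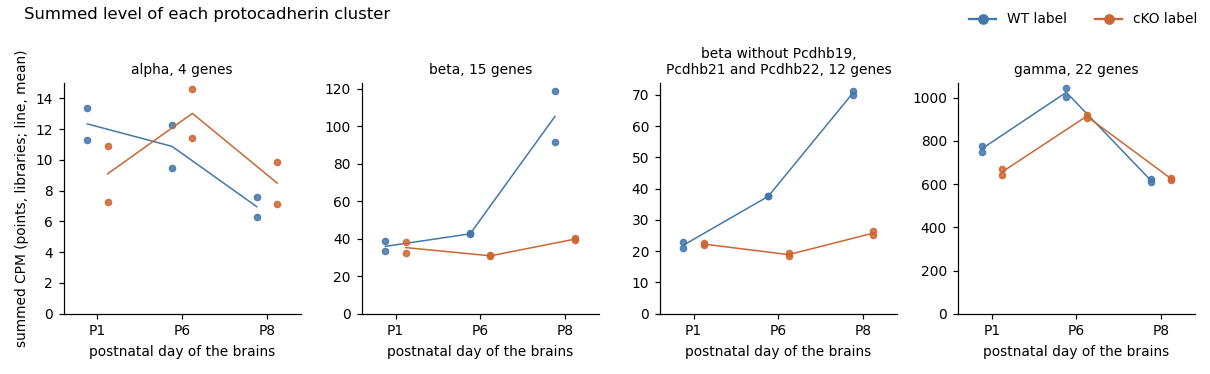
Summed CPM (vertical axes, from 0) of the genes of each protocadherin array in the 12 libraries by postnatal day, with a point per library and a line through the mean of the 2 libraries. The WT-labelled beta sums climb to 119 and 91.7 CPM at P8 while the cKO-labelled sums stay between 30.7 and 40.5 CPM, and the gamma sums of replicates nearly coincide.

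At P8, 10 of 15 *Pcdhb* genes were lower in the cKO-labelled libraries and 0 were higher by edgeR's quasi-likelihood test (adjusted p under 0.05 and at least 1.5-fold), when 8.37% of all 17938 genes tested were lower and 11.2% higher. An unadjusted p under 0.05 with the same fold change likewise gave 10 lower (9.71% of all genes) and 0 higher, and DESeq2 gave the same counts. The median log2 fold change of the 15 genes was -1.66 and that of all genes 0.01. Without *Pcdhb19*, *Pcdhb21* and *Pcdhb22*, 9 of 12 were lower.

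*Pcdhb17*, the most abundant *Pcdhb* gene per length (37484795 to 37489454), had 19.5 and 17.3 CPM in the WT-labelled libraries and 5.59 and 6.02 CPM in the cKO-labelled libraries at P8. Its neighbour *Pcdhb16* (37477814 to 37483038) had 11.4 and 9.14 against 2.71 and 2.86 CPM. In both genes every WT-labelled library was well above every cKO-labelled library, and the log2 fold changes were -1.66 ± 0.14 (SE, adjusted p = 1.77e-05) for *Pcdhb17* and -1.88 ± 0.18 (adjusted p = 4.44e-05) for *Pcdhb16*. *Pcdhb20* had 9.84 and 10.9 against 3.03 and 2.96 CPM, a log2 fold change of -1.79 ± 0.27 (adjusted p = 0.000688). *Pcdhb18* had 7.13 and 8.12 against 3.37 and 3.55 CPM, with a log2 fold change of -1.14 ± 0.17 (adjusted p = 0.000618). In each of these 4 genes the difference was many times its standard error, and the call remained in each of the 18 alternative fits.

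Among the lower-level genes upstream of *Pcdhb16*, only *Pcdhb9* and *Pcdhb13* showed larger ratios than each of *Pcdhb16*, *Pcdhb17*, *Pcdhb18* and *Pcdhb20*. *Pcdhb9* had 3.82 and 3.98 CPM in the WT-labelled and 0.45 and 0.868 CPM in the cKO-labelled libraries at P8, a log2 fold change of -2.56 ± 0.37 (adjusted p = 0.00055). *Pcdhb13* had 1.48 and 2.17 against 0.0682 and 0.119 CPM, a log2 fold change of -4.25 ± 0.85 (adjusted p = 0.00387). *Pcdhb7* had 3.53 and 3.81 against 1.09 and 1.19 CPM, a log2 fold change of -1.69 ± 0.32 (adjusted p = 0.00311). For these 3 genes the groups were again separate, although the counts of *Pcdhb13* were small. *Pcdhb15* had 3.53 and 3.64 against 1.47 and 1.12 CPM and *Pcdhb14* 5.40 and 6.36 against 3.37 and 3.36 CPM, with log2 fold changes of -1.47 ± 0.40 (adjusted p = 0.0189) and -0.80 ± 0.22 (adjusted p = 0.0211). The call of *Pcdhb15* was lost without any 1 of the 4 P8 libraries, and that of *Pcdhb14* without WT replicate 2 or either cKO library at P8.

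The 5 *Pcdhb* genes that did not pass at P8 were *Pcdhb2*, *Pcdhb3*, *Pcdhb5*, *Pcdhb19* and *Pcdhb22*. *Pcdhb2*, *Pcdhb3* and *Pcdhb5* are the 3 listed genes nearest the alpha array, upstream of *Pcdhb7*, and together they summed to 5.55 and 4.71 (WT) against 4.06 and 4.30 CPM (cKO) at P8. *Pcdhb2* had 1.28 and 0.928 against 0.90 and 1.32 CPM (log2 fold change 0.01 ± 0.46) and *Pcdhb3* 1.95 and 1.16 against 1.21 and 1.62 CPM (-0.13 ± 0.35), so their groups overlapped. *Pcdhb5* had 2.32 and 2.62 against 1.95 and 1.37 CPM, a log2 fold change of -0.58 ± 0.29 (adjusted p = 0.17). Of the 12 listed genes from *Pcdhb7* onwards, 10 passed. This division by position was made after the values were seen.

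**Figure D2:**
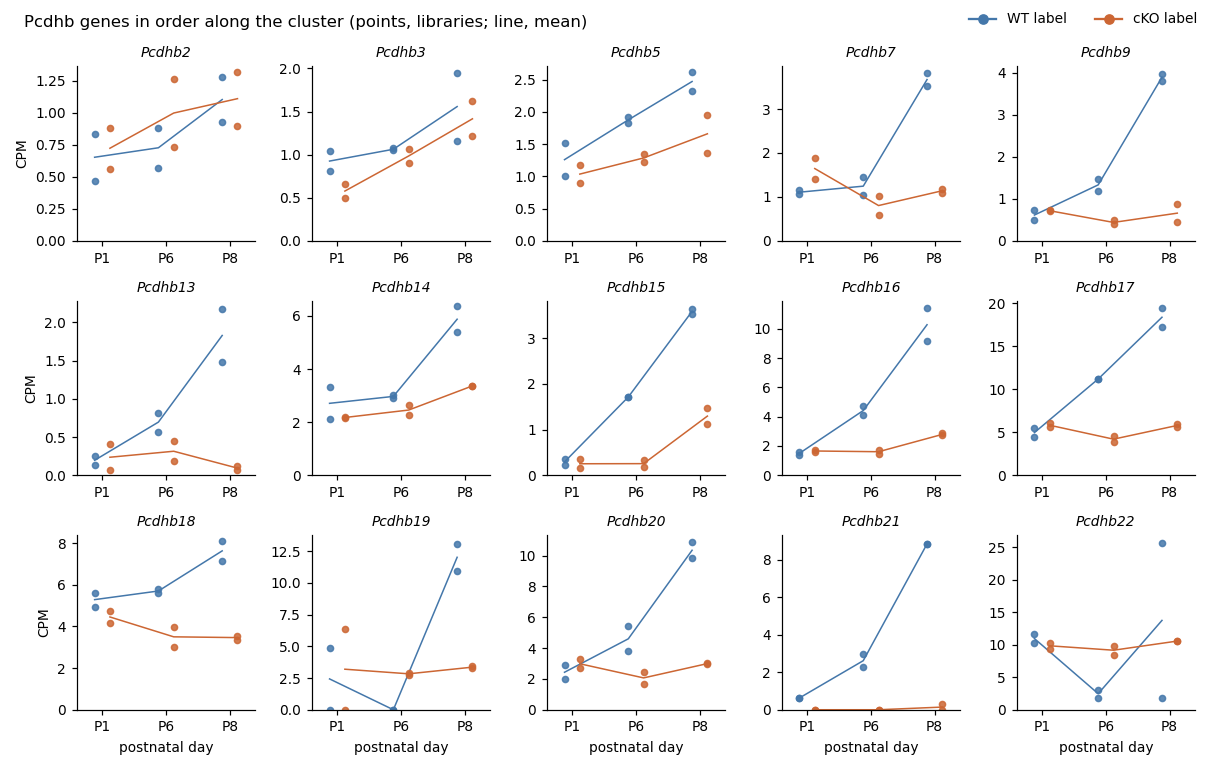
CPM of the 15 *Pcdhb* genes (a panel each, in order along the array, vertical axes from 0 on their own scale) by postnatal day, with a point per library and a line through the mean of the 2 libraries of a group. At P8 both WT-labelled libraries are above both cKO-labelled libraries in the 11 genes from *Pcdhb7* to *Pcdhb21*, as in *Pcdhb17* with 19.5 and 17.3 against 5.59 and 6.02 CPM, whereas *Pcdhb2* and *Pcdhb3* overlap.

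At P6, 7 of 15 *Pcdhb* genes were lower in the cKO-labelled libraries and 0 were higher, with 6.38% of all genes lower and 7.16% higher in the same test. An unadjusted p under 0.05 called 1 *Pcdhb* gene higher, *Pcdhb19* (8.95% of all genes were), and so did DESeq2. The median log2 fold change of the 15 genes was -0.70, that of all genes 0.0. *Pcdhb17* had 11.2 CPM in each WT-labelled library and 4.58 and 3.83 CPM in the cKO-labelled libraries, a log2 fold change of -1.41 ± 0.14 (adjusted p = 8.94e-05). *Pcdhb16* had 4.70 and 4.13 against 1.75 and 1.46 CPM (-1.46 ± 0.19, adjusted p = 0.000393). *Pcdhb15* had 1.70 and 1.72 against 0.183 and 0.327 CPM (-2.74 ± 0.44, adjusted p = 0.00165). These 3 calls remained in all 12 fits that left out a library.

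*Pcdhb9* had 1.47 and 1.20 (WT) against 0.487 and 0.389 CPM (cKO) at P6, a log2 fold change of -1.60 ± 0.37 (adjusted p = 0.0118), and its call was lost without P6 WT replicate 1 or P6 cKO replicate 2. *Pcdhb20* had 3.79 and 5.42 against 2.47 and 1.66 CPM (-1.15 ± 0.27, adjusted p = 0.0118) and *Pcdhb18* 5.59 and 5.81 against 3.03 and 3.97 CPM (-0.70 ± 0.17, adjusted p = 0.0131). Both of these calls were lost without P6 WT replicate 2, that of *Pcdhb20* also without P6 cKO replicate 2 and that of *Pcdhb18* without P6 cKO replicate 1. *Pcdhb7*, *Pcdhb13* and *Pcdhb14*, which passed at P8, had log2 fold changes of -0.63 ± 0.33, -1.14 ± 0.75 and -0.27 ± 0.23 at P6 and did not pass.

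At P1, 1 of 15 *Pcdhb* genes passed, *Pcdhb21*, with 0.892% of all genes lower and 4.01% higher in the cKO-labelled libraries. No *Pcdhb* gene was higher by edgeR's quasi-likelihood test, by an unadjusted p under 0.05 or by DESeq2 (0 by each). The other 14 had log2 fold changes between -0.68 (*Pcdhb3*, SE 0.36) and 0.57 (*Pcdhb7*, SE 0.32). *Pcdhb17* had 5.48 and 4.46 CPM in the WT-labelled and 6.04 and 5.62 CPM in the cKO-labelled libraries, a log2 fold change of 0.23 ± 0.14, and *Pcdhb16* 1.39 and 1.61 against 1.70 and 1.61 CPM, a log2 fold change of 0.14 ± 0.19.

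*Pcdhb21* and *Pcdhb22* are given together, because their exons overlap. The overlap of 455 bases is 9.7% of the exonic length of *Pcdhb21* and 6.9% of that of *Pcdhb22*, so most of each gene lies outside it. *Pcdhb21* had 0.62 and 0.639 CPM (WT) against 0 counts in both cKO-labelled libraries at P1, 2.26 and 2.98 CPM against 0 counts at P6, and 8.83 and 8.86 CPM against 0 and 0.285 CPM at P8. With 3 counts over the 2 libraries taken as the limit that a count of 0 allows, it was at least 24.3-fold lower at P1 and at least 113-fold lower at P6, and at P8 the fitted log2 fold change was -5.89 ± 0.95 (adjusted p = 0.00269). Leaving out a single library moved that P8 value between -12.2 and -4.94, the lowest without cKO replicate 2 and the highest without cKO replicate 1. The P1 call was lost without any 1 of the 4 P1 libraries. *Pcdhb22* went the other way at P6, with 3.08 and 1.87 CPM (WT) against 8.50 and 9.82 CPM (cKO), and at P8 its WT-labelled libraries had 25.6 and 1.84 CPM. The pair summed to 5.33 and 4.85 against 8.50 and 9.82 CPM at P6 and to 34.5 and 10.7 against 10.6 and 10.8 CPM at P8, so the groups of the sum were not lower in the cKO-labelled libraries at P6 and overlapped at P8. How a read from the overlap was assigned is not stated, and its part in these values was not tested.

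*Pcdhb19*, which shares no exonic base with another gene of the arrays, was erratic too. It had 4.86 CPM and 0 counts in the 2 WT-labelled libraries and 6.39 CPM and 0 counts in the 2 cKO-labelled libraries at P1, and 0 counts in both WT-labelled libraries against 2.76 and 2.91 CPM at P6. At P8 it had 13.1 and 10.9 against 3.44 and 3.28 CPM, a log2 fold change of -1.84 ± 1.76 (adjusted p = 0.481). The P8 direction matched that of its neighbours, but the spread over all groups left it far from the threshold.

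**Figure D3:**
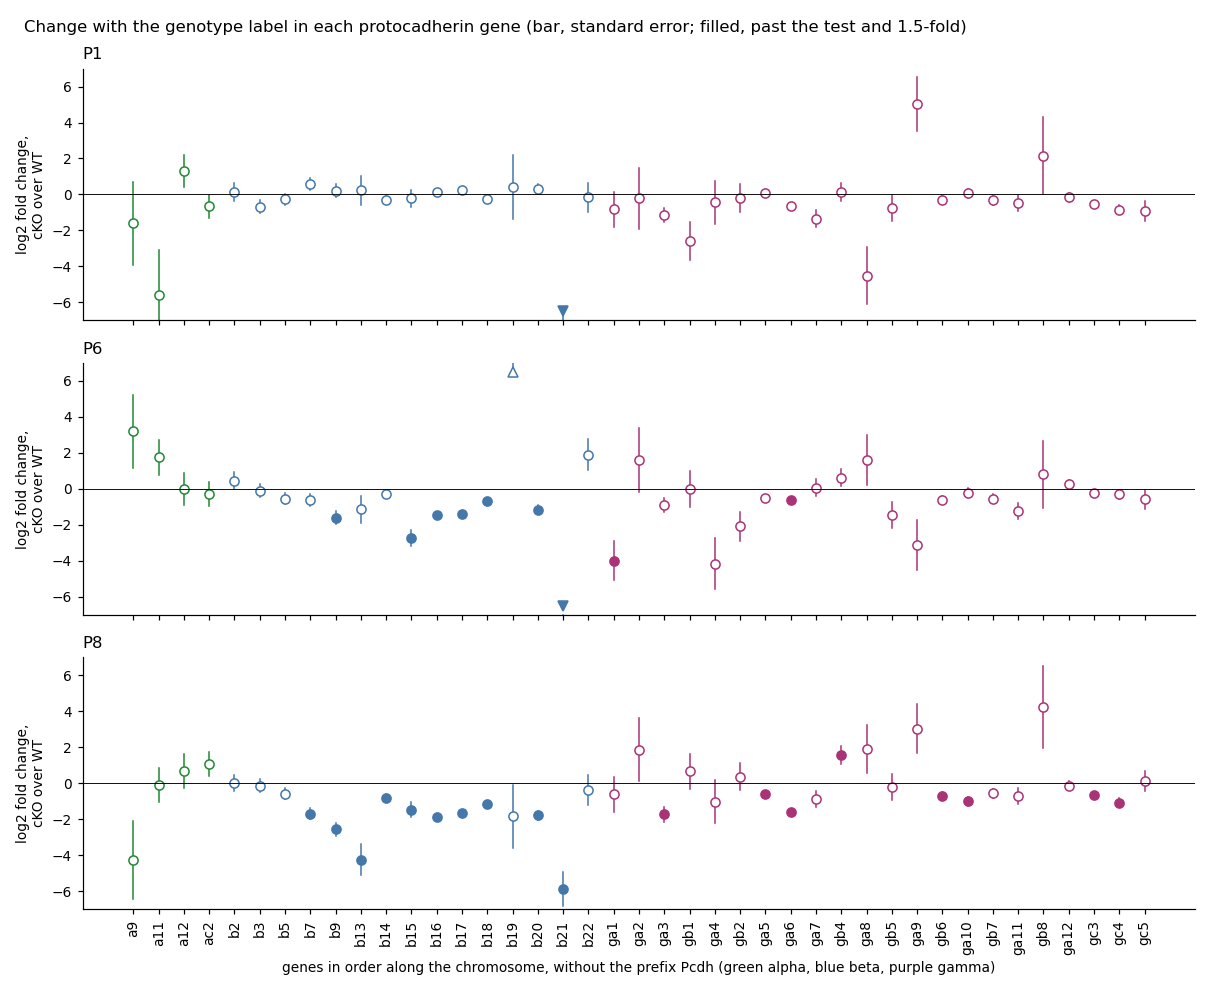
Log2 fold change of cKO-labelled over WT-labelled libraries (vertical axis) for the 41 genes in order along chromosome 18 at P1, P6 and P8, with bars for the standard error, filled symbols for genes past the test, and triangles for values beyond the axis. Filled beta symbols number 1 at P1, 7 at P6 and 10 at P8, all below 0.

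Whether the genotype difference itself changed between time points was tested with interaction terms, the difference of 2 genotype log2 fold changes. Between P1 and P8, 7 of 15 *Pcdhb* genes had a more negative difference at P8 and 0 a more positive one (adjusted p under 0.05), with 11.7% of all genes more negative. *Pcdhb17* (-1.89 ± 0.20, adjusted p = 0.000106), *Pcdhb16* (-2.02 ± 0.26, adjusted p = 0.000402), *Pcdhb20* (-2.08 ± 0.38, adjusted p = 0.00301), *Pcdhb9* (-2.77 ± 0.52, adjusted p = 0.00354) and *Pcdhb7* (-2.26 ± 0.46, adjusted p = 0.0056) kept the call in every alternative fit. *Pcdhb13* and *Pcdhb18* passed too, with -4.49 ± 1.15 and -0.89 ± 0.23, and each lost the call in at least 4 of the 12 fits that left out a library.

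Between P1 and P6, 5 *Pcdhb* genes had a more negative difference at P6, *Pcdhb9*, *Pcdhb15*, *Pcdhb16*, *Pcdhb17* and *Pcdhb20*, and 0 a more positive one, with 8.19% of all genes more negative. The terms of *Pcdhb17* (-1.64 ± 0.20, adjusted p = 0.000543) and *Pcdhb16* (-1.60 ± 0.26, adjusted p = 0.00324) kept the call in every alternative fit. Those of *Pcdhb15* (-2.54 ± 0.64), *Pcdhb20* (-1.44 ± 0.38) and *Pcdhb9* (-1.82 ± 0.52) lost it in 5, 8 and 10 of the 12 fits that left out a library. Between P6 and P8, 0 of 15 *Pcdhb* genes passed by edgeR's quasi-likelihood test (8.83% of all genes were more negative), while 3 had an unadjusted p under 0.05 and DESeq2 called 2, *Pcdhb13* and *Pcdhb19*, both more negative.

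The same numbers can be read along time within a label. From P1 to P8, 10 of 15 *Pcdhb* genes rose in the WT-labelled cultures and 0 fell (14.4% of all genes rose and 15% fell), and 3 rose in the cKO-labelled cultures and 0 fell (10.3% of all genes rose and 9.97% fell). *Pcdhb16* rose by 2.77 ± 0.19 on the log2 scale in the WT-labelled cultures (adjusted p = 2.53e-06) and by 0.75 ± 0.19 in the cKO-labelled cultures (adjusted p = 0.0118). *Pcdhb15* rose by 3.62 ± 0.45 and 2.36 ± 0.45, from 0.352 and 0.233 CPM (WT) and 0.153 and 0.351 CPM (cKO) at P1. *Pcdhb17* rose by 1.89 ± 0.14 in the WT-labelled cultures (adjusted p = 4.64e-06) and differed by less than its spread in the cKO-labelled cultures, with 6.04 and 5.62 CPM at P1 and 5.59 and 6.02 CPM at P8. *Pcdhb3*, outside the downstream genes, rose in the cKO-labelled cultures by 1.29 ± 0.36 (adjusted p = 0.0213), from 0.663 and 0.491 to 1.21 and 1.62 CPM, and lost the call without cKO replicate 2 of P1 or of P8.

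The steps were split over both intervals. From P1 to P6, 5 *Pcdhb* genes rose in the WT-labelled cultures (12.2% of all genes rose), *Pcdhb15* by 2.56 ± 0.44, *Pcdhb16* by 1.55 ± 0.19, *Pcdhb17* by 1.17 ± 0.14, *Pcdhb9* by 1.11 ± 0.36 and *Pcdhb20* by 0.92 ± 0.27 on the log2 scale. The call of *Pcdhb9* was kept in 6 and that of *Pcdhb20* in 10 of the 12 fits that left out a library. In the cKO-labelled cultures 0 rose (also 0 by an unadjusted p and 0 by DESeq2, with 11% of all genes rising) and 1 fell, *Pcdhb7*, by 1.03 on the log2 scale (SE 0.33, adjusted p = 0.0339, 10.4% of all genes falling), a call kept in 7 of the 12 fits that left out a library. From P6 to P8, 7 rose in the WT-labelled cultures (8.66% of all genes), *Pcdhb19* from 0 counts in both libraries among them. With 3 counts over both libraries as the limit, this was at least 528-fold, which allows for counting error only. The WT-labelled libraries of P1 had 4.86 CPM and 0 counts of this gene, so a count of 0 did not bound its level between cultures. The call of *Pcdhb19* was kept in 4 of the 12 fits that left out a library and lost without any 1 of the P6 or P8 libraries. In the cKO-labelled cultures 2 rose from P6 to P8 (11.9% of all genes), *Pcdhb15* by 2.34 ± 0.44 and *Pcdhb16* by 0.80 ± 0.18, the latter lost without P6 cKO replicate 2.

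Other cell types changed alongside these values. The 7 fibroblast markers, led by *Col1a1*, *Col1a2* and *Col3a1*, summed to 409 to 423 CPM (WT) against 2467 to 2508 CPM (cKO) at P1, 6783 to 6829 against 2531 to 2704 CPM at P6, and 25926 to 26057 against 8233 to 8487 CPM at P8. By the same test all 7 were higher at P1, all 7 lower at P6 and 6 lower at P8 in the cKO-labelled libraries. For this and the other marker lists, the shares of all genes were 4.01%, 7.16% and 11.2% higher and 0.892%, 6.38% and 8.37% lower at P1, P6 and P8. The astrocyte marker sum was also lower in the cKO-labelled libraries at P8, with 5 of 10 markers passing (*Aqp4*, *Gja1*, *Gfap*, *Aldoc* and *S100b*). The microglial sum was 2904 to 2948 (WT) against 2344 to 2355 CPM (cKO) at P1, 1995 to 2019 against 2522 to 2554 CPM at P6, and 2115 to 2151 against 3769 to 3991 CPM at P8. Of the 8 microglial markers 2 were lower at P1, 1 higher and 1 lower at P6, and 4 higher and 1 lower at P8. The neuronal sum of *Map2*, *Stmn2*, *Syt1* and *Tubb3* was 183 to 218 against 400.4 to 403 CPM at P6 and 120.1 to 140.3 against 264 to 276 CPM at P8. The 4 endothelial markers summed to 23.8 to 25.6 (WT) against 47.6 to 50.2 CPM (cKO) at P1, 120.0 to 123 against 58.5 to 62.5 CPM at P6, and 148 to 161 against 36.9 to 39.9 CPM at P8, with 2 higher at P1, 3 lower at P6, and 1 higher and 2 lower at P8. The 8 markers of the oligodendrocyte lineage summed to 108 to 119 against 138 to 143 CPM at P1, 191 to 193 against 139 to 149.8 CPM at P6, and 168 to 169 against 129 to 129.7 CPM at P8, with 1 higher at P1, 2 lower at P6, and 1 higher and 3 lower at P8. The part of these cell types in the *Pcdhb* differences was not tested, and in bulk cultures fewer cells of a type and less RNA per cell cannot be told apart.

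**Figure D4:**
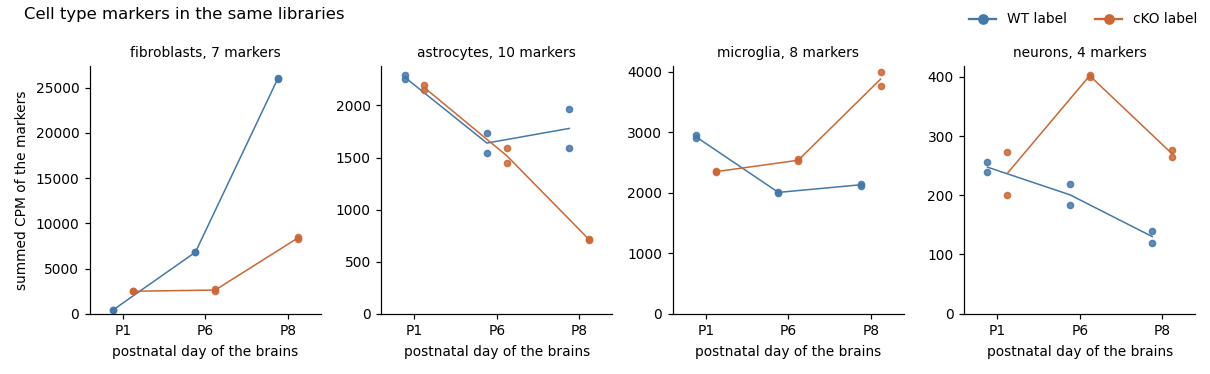
Summed CPM of the marker lists of fibroblasts, astrocytes, microglia and neurons (vertical axes from 0) in the same 12 libraries by postnatal day, with a point per library and a line through the mean. Fibroblast markers are higher in the cKO-labelled libraries at P1 (2467 to 2508 against 409 to 423 CPM) and lower at P6 and P8.

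The gamma array had the largest share of protocadherin reads and the steadiest total. Its 22 genes summed to 749 and 777 (WT) against 643 and 669 CPM (cKO) at P1, 1003 and 1047 against 908 and 921 CPM at P6, and 622 and 611 against 620 and 628 CPM at P8. Replicate sums differed by at most 1.04-fold, the WT mean was 1.16 and 1.12 times the cKO mean at P1 and P6, and the P8 groups overlapped.

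Single gamma genes did not share this steadiness. In 13 of 22 the 2 libraries of at least 1 group differed by more than 3-fold, against 12.7% of all genes tested and 4.62% of those that averaged 1 CPM or more, and against 4 of 4 *Pcdha* and 4 of 15 *Pcdhb* genes. *Pcdhgb8*, annotated as a polymorphic pseudogene, had 0.852 and 417 CPM in the WT-labelled libraries at P6 and 385 and 342 CPM in the cKO-labelled libraries, and at P8 1.63 and 1.86 against 1.30 and 63.9 CPM. *Pcdhga2* had 5.36 and 302 CPM (WT) against 258 and 6.67 CPM (cKO) at P1. *Pcdhga9* had 13.6 and 247 CPM in the cKO-labelled libraries of P1, and *Pcdhgb2* 207 and 17.4 CPM in the WT-labelled libraries of P6. Besides *Pcdhgc3*, the gene with the highest count was *Pcdhgc5*, *Pcdhga2*, *Pcdhga9*, *Pcdhgb2* or *Pcdhgb8* depending on the library, with 5.05% to 42.4% of the gamma counts, and it differed between the replicates of 4 of the 6 groups.

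Between replicates of a group these values differed while the sum of the array did so by at most 1.04-fold, and the genes share between 37.9% and 45.9% of their exonic length with others of the array. Which program counted the reads and how it assigned those of the constant exons is not stated, and its part was not tested. A count of such a gene is therefore given as the table holds it and not as its promoter's use.

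**Figure D5:**
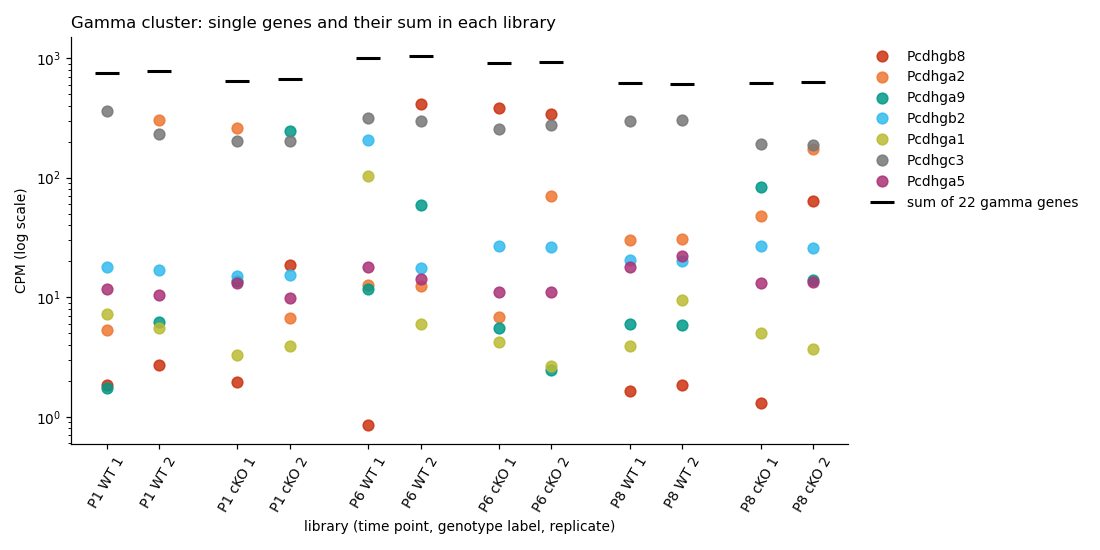
CPM (logarithmic axis) of 7 gamma genes and of the sum of all 22 in each library, ordered by time point, genotype label and replicate. *Pcdhgb8*, *Pcdhga2* and *Pcdhga9* jump between replicates, as from 0.852 to 417 CPM for *Pcdhgb8* in the P6 WT libraries, while the sum stays between 611 and 1047 CPM and *Pcdhga5* between 9.95 and 22.3 CPM.

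At P8, 7 of 22 gamma genes were lower in the cKO-labelled libraries, with 8.37% of all genes lower, and 1 was higher, with 11.2% of all genes higher. *Pcdhgc3* had 299 and 301 CPM (WT) against 192 and 189 CPM (cKO), a log2 fold change of -0.66 ± 0.16 (adjusted p = 0.0108), and its call was lost without either cKO library. *Pcdhgc4*, the isoform needed for survival of newborn mice and of cortical interneurons, had 6.34 and 4.13 against 2.26 and 2.66 CPM (-1.08 ± 0.25, adjusted p = 0.00805), and its call was lost without WT replicate 1 or cKO replicate 1. *Pcdhgc5*, the remaining C-type gene, had 31.4 and 40.1 against 44.1 and 34.6 CPM, with overlapping groups.

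Among the alternate gamma genes, *Pcdhga6* had 20.7 and 19.8 CPM (WT) against 6.19 and 6.95 CPM (cKO) at P8, a log2 fold change of -1.62 ± 0.18 (adjusted p = 0.000114) that remained called in every alternative fit. *Pcdhga3* had 21.0 and 21.3 against 7.42 and 5.37 CPM (-1.73 ± 0.41, adjusted p = 0.00962), a call lost without cKO replicate 2. *Pcdhga10* had 22.2 and 19.6 against 11.7 and 8.93 CPM (-1.01 ± 0.25), *Pcdhgb6* 20.7 and 20.9 against 13.0 and 12.4 CPM (-0.71 ± 0.22) and *Pcdhga5* 18.0 and 22.3 against 13.2 and 13.3 CPM (-0.60 ± 0.16). These last 3 each lost the call when any of 2 to 4 P8 libraries was left out. The rise was *Pcdhgb4*, with 10.5 and 9.81 against 45.5 and 15.1 CPM (1.57 ± 0.50, adjusted p = 0.0368), and without cKO replicate 1 the log2 fold change was 0.57 and did not pass. Falls at P8 thus included 6 genes whose replicates agreed within 2-fold in every group, and *Pcdhga3*, whose replicates differed by up to 2.95-fold.

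At P6, 2 of 22 gamma genes passed, both lower in the cKO-labelled libraries, a share near the 6.38% of all genes that were lower. An unadjusted p under 0.05 with at least 1.5-fold gave 7 lower and 0 higher, with 1425 of all 17938 genes lower and 8.95% higher. DESeq2 called 4 lower and 0 higher, with 1315 of all genes lower. *Pcdhga6* had 13.5 and 11.5 against 6.38 and 9.65 CPM (-0.64 ± 0.18, adjusted p = 0.0285), and the call was lost without WT replicate 1 or cKO replicate 1. *Pcdhga1* had 104 and 5.96 against 4.23 and 2.68 CPM (-3.99 ± 1.06, adjusted p = 0.0221), and without WT replicate 1 the log2 fold change was -0.79 and did not pass. At P1, 0 of 22 passed by edgeR's quasi-likelihood test, although 7 had an unadjusted p under 0.05 and at least 1.5-fold (6 lower, 1 higher, against 2.48% and 6.39% of all genes) and DESeq2 called 4 (3 lower, 1 higher). *Pcdhgc3* had 364 and 232 (WT) against 205 and 203 CPM (cKO) at P1 (-0.55 ± 0.16, adjusted p = 0.0674), and *Pcdhga6* 11.8 and 10.6 against 6.80 and 7.30 CPM (-0.67 ± 0.18, adjusted p = 0.052). Both were lower in the cKO-labelled libraries at all 3 time points without overlap of the groups.

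Between each 2 time points 1 of 22 gamma genes had an interaction term that passed, a share not above that of all genes. Of all genes 8.19% were more negative between P1 and P6, 8.83% between P6 and P8 and 11.7% between P1 and P8. The term of *Pcdhga6* passed between P6 and P8 (-0.98 ± 0.25, adjusted p = 0.0227) and between P1 and P8 (-0.96 ± 0.25, adjusted p = 0.0225), and each was lost in at least 4 of the 12 fits that left out a library. *Pcdhga9* passed between P1 and P6 (-8.16 ± 2.03, adjusted p = 0.0256), but its values rest on libraries that jumped, and without P1 cKO replicate 2 the call was lost. Along time in the WT-labelled cultures 3 of 22 gamma genes rose from P1 to P8, a share near the 14.4% of all genes that rose. They were *Pcdhga10* (1.24 ± 0.25), *Pcdhga5* (0.87 ± 0.16) and *Pcdhga6* (0.85 ± 0.18), and these 3 calls remained in every alternative fit. In the cKO-labelled cultures 1 of 22 gamma genes rose from P1 to P8, with 10.3% of all genes rising. It was *Pcdhgb4* (1.54 ± 0.50), a call kept in 5 of the 12 fits that left out a library, with 0.53 on the log2 scale as the lowest value. From P1 to P6 *Pcdhga10* rose by 0.89 ± 0.25 and *Pcdhgc4* by 0.74 ± 0.25 in these cultures, with 11% of all genes rising. Over this interval *Pcdhga9* fell by 5.04 on the log2 scale (adjusted p = 0.0254, with 10.4% of all genes falling). The call of *Pcdhga10* was kept in 10 of those 12 fits, that of *Pcdhga9* in 9 and that of *Pcdhgc4* in 5, and the last 2 were also lost with the replicate block. From P6 to P8 *Pcdhgc4* fell by 1.02 on the log2 scale (SE 0.25, with 12.2% of all genes falling), a call lost without P6 cKO replicate 2 or P8 cKO replicate 1. *Pcdhga10* fell by 0.73 over the same interval (SE 0.25), a call kept in 5 of the 12 fits and lost with the replicate block. The 3 C-type gamma genes together summed to 337 and 346 (WT) against 239 and 226 CPM (cKO) at P8, and the 19 alternate genes to 285 and 265 against 382 and 402 CPM. The alternate sum held genes that differed between the 2 cKO-labelled libraries, *Pcdhga2* with 48.0 and 175 CPM, *Pcdhga9* with 82.8 and 13.9 CPM and *Pcdhgb8* with 1.30 and 63.9 CPM, and 9 of 12 *Pcdhga* and 3 of 7 *Pcdhgb* genes had a negative log2 fold change at P8. Per exonic length, *Pcdhgc3* made up 46.7% and 48.2% of the array in the WT-labelled and 30.7% and 28.1% in the cKO-labelled libraries at P8. The shares were 49.4% and 28.0% against 29.6% and 30.5% at P1, and 31.1% and 26.4% against 26.0% and 27.7% at P6. The groups thus overlapped at P1 and P6. The array total behind each share held the genes that jumped between replicates.

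The 4 *Pcdha* genes were low, and none passed between genotype labels at any time point (0 by edgeR's quasi-likelihood test, 0 by an unadjusted p under 0.05, and 1 by DESeq2, *Pcdha11* at P1). *Pcdhac2* had 10.1 and 12.2 (WT) against 7.23 and 6.83 CPM (cKO) at P1, 8.62 and 8.18 against 4.42 and 9.49 CPM at P6, and 0.757 and 5.75 against 6.30 and 7.57 CPM at P8. The groups were separate at P1 and P8, in opposite directions, and overlapped at P6, with replicates up to 7.60-fold apart. *Pcdha9* ranged from 0 to 5.56 CPM, with 5.56 CPM and 0 counts in the 2 cKO-labelled libraries of P6. *Pcdha12* ranged from 0.319 to 3.49 CPM, with 3.49 and 0.439 CPM in the cKO-labelled libraries of P1. *Pcdha11* was at 0 counts in both cKO-labelled libraries of P1 and had 2.73 and 0.451 CPM at P6 and 0.382 and 1.18 CPM at P8, which was at least 61.3-fold and at least 30.1-fold higher. In the WT-labelled cultures it rose by 3.23 ± 1.13 on the log2 scale from P1 to P8 (adjusted p = 0.0459), from 0.134 and 0.0492 to 0.37 and 1.32 CPM. That call was lost in 6 of the 12 fits that left out a library and with the replicate block, and the value moved between 2.04 and 4.05. The sum of the 4 genes was 11.3 and 13.4 against 10.9 and 7.27 CPM at P1, 12.3 and 9.48 against 14.6 and 11.5 CPM at P6, and 6.31 and 7.60 against 7.15 and 9.83 CPM at P8.

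The other genes of the region did not follow the *Pcdhb* pattern. Of 14 tested genes that lie inside the arrays or flank them, 0 were lower in the cKO-labelled libraries at any time point, and 1 was higher at each. An unadjusted p with at least 1.5-fold gave 2 lower at P1 and 0 at P6 and P8, and DESeq2 gave the same. Of all genes, 0.892%, 6.38% and 8.37% were lower and 4.01%, 7.16% and 11.2% higher at P1, P6 and P8. *Taf7*, which encodes a subunit of the general transcription factor TFIID and lies between the beta and gamma arrays, had 6.98 and 7.99 (WT) against 7.38 and 7.29 CPM (cKO) at P8. *Gm38182* passed at P1 (6.29 ± 1.32) and P6 (4.42 ± 1.19), with 0.235 and 0.209 against 2.45 and 32.4 CPM at P1. Its exons share bases with those of the *Pcdhg* genes on the same strand and its P1 cKO libraries differed widely, so the limit on single gamma counts applies to it too. *Arap3*, a GTPase-activating protein gene downstream of the gamma array, passed at P8 (1.23 ± 0.07, adjusted p = 1.61e-06).

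Genes with known roles in protocadherin choice were counted by list. Of 11 genes of CTCF and cohesin, which loop enhancers to the promoters of the arrays, 0 passed at P1 and P6. An unadjusted p with at least 1.5-fold gave 0 at both, as did DESeq2. At P8 1 passed, *Pds5b*, a cohesin regulator, which was lower (-0.62 ± 0.05, adjusted p = 1.56e-05), with 8.37% of all genes lower. *Pds5b* was also lower at P6, by less than 1.5-fold (-0.22 ± 0.05, adjusted p = 0.0113 by edgeR's quasi-likelihood test). By the same test *Ctcf* (-0.19 ± 0.06, adjusted p = 0.0286) and *Smc3* (-0.19 ± 0.06, adjusted p = 0.0342) were lower at P8, again by less than 1.5-fold. Of 13 genes of DNA methylation and heterochromatin, *Tet1*, which oxidises methylcytosine, was lower at P6 (-1.36 ± 0.24, adjusted p = 0.00268) and P8 (-2.43 ± 0.24, adjusted p = 4.5e-05), with 6.38% and 8.37% of all genes lower. At P1 0 passed (0 by an unadjusted p with at least 1.5-fold and 0 by DESeq2). DESeq2 called 2 of the 13 lower at P6 and 2 at P8. Others had an adjusted p under 0.05 by edgeR's quasi-likelihood test with less than 1.5-fold. At P6 these were *Dnmt1* (-0.40), *Uhrf1* (-0.44), *Smchd1* (-0.28) and *Trim28* (-0.26), all lower. At P8 *Rest* (-0.30) and *Trim28* (-0.24) were lower and *Uhrf1* (0.26) was higher. None of the 4 PRC2 core genes *Ezh1*, *Ezh2*, *Eed* and *Suz12*, which encode the H3K27 methyltransferase complex, passed at any time point. An unadjusted p with at least 1.5-fold gave 0 and DESeq2 gave 0, with medians of -0.07, -0.08 and 0.05 on the log2 scale. *Ezh2* was lower at P8 by less than 1.5-fold (-0.37 ± 0.10, adjusted p = 0.0149 by edgeR's quasi-likelihood test).

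Among 18 partners and effectors of the proteins, 2 passed at P1 (both lower), 1 at P6 (higher) and 6 at P8 (4 higher, 2 lower). Of all genes, 0.892% were lower at P1, 7.16% higher at P6, and 11.2% higher and 8.37% lower at P8. *Cyfip2*, of the WAVE actin regulator that protocadherin tails recruit, was higher at P6 (0.59 ± 0.07, adjusted p = 0.000201) and P8 (1.17 ± 0.07, adjusted p = 1.62e-06), and its relative *Cyfip1* was higher at P8 (0.66 ± 0.04, adjusted p = 3.78e-06). *Marcks*, an actin-binding membrane protein downstream of gamma-protocadherins, was lower at P8 (-0.82 ± 0.04, adjusted p = 8.02e-07), as was *Nlgn2*, a synaptic adhesion molecule (-0.97 ± 0.09, adjusted p = 2.74e-05). *Ret*, a receptor kinase that associates with protocadherins, was lower at P1 (-1.23 ± 0.20, adjusted p = 0.00436) and higher at P8 (1.19 ± 0.18, adjusted p = 0.000679).

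Of 9 non-clustered protocadherins analysed, which are single genes outside the 3 arrays, 3 were higher and 0 lower at P1, 4 higher and 2 lower at P6, and 4 higher and 1 lower at P8. The shares of all genes were 4.01%, 7.16% and 11.2% higher and 0.892%, 6.38% and 8.37% lower at P1, P6 and P8. *Pcdh10* was higher at P6 (1.58 ± 0.17, adjusted p = 0.000143) and P8 (0.66 ± 0.17, adjusted p = 0.0148), and *Pcdh1* at P6 (1.57 ± 0.14, adjusted p = 5.32e-05) and P8 (0.75 ± 0.14, adjusted p = 0.00314). *Pcdh19* was higher at P1 (0.80 ± 0.09) and P8 (0.76 ± 0.09) and lower at P6 (-1.26 ± 0.09, adjusted p = 1.19e-05). Their median log2 fold change at P8 was 0.49, against -1.66 for the 15 *Pcdhb* genes, -0.59 for the 22 *Pcdhg* genes and 0.01 for all genes. The difference between these medians was not tested.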

How the data were processed

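RNA-seq was done on 12 primary astrocyte cultures in 6 groups of 2. The authors deposited a table of raw read counts per gene; per the labels and the study's methods, reads were mapped with HISAT2 to GRCm38 (mm10), the program that counted them being not given in the sources used here. Libraries of a group are called biological repeats. The p-values rest on the spread between libraries of a group, estimated for each gene over all 6 groups with information shared between genes. An exact permutation p of 2 against 2 libraries could not go below 0.333. Genes were tested where edgeR's filterByExpr kept them (17938 of 18903, all 41 protocadherin genes among them). edgeR 4.0.16 (R 4.3.3) with TMM scaling fitted the 6 groups together, and contrasts were tested with the quasi-likelihood F-test and Benjamini-Hochberg adjustment over all genes tested. A call needed an adjusted p under 0.05 with a change of 1.5-fold or more, and interaction terms the adjusted p alone. Counts by an unadjusted p under 0.05 or by DESeq2 used the same minimum fold change, again not for interaction terms. CPM used the TMM library sizes. Where both libraries of a group had 0 counts, fold limits took 3 counts over the 2 libraries together. For ratios between replicates each value was taken as at least 3 counts of its library. Both limits cover counting error only. DESeq2 1.42.0 was an alternative. The model code was tested on simulated data. Positions and exonic lengths came from GENCODE vM21 on GRCm38.

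The protocadherin genes, the gene and marker lists and the tests were chosen with earlier results of these data known. Genes were named by level (the 3 highest of each subcluster) and by size of change past the thresholds (the 6 largest rises and falls at each time point and the 3 largest changes of each interaction and step, with a mean of at least 0.5 CPM); other members were named after their values were seen. For lists, up to 4 genes with the smallest p were named.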

Additional observations from a re-analysis of the deposited data

Results flagged for a closer look

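Interaction terms in which the genotype difference changed between time points (edgeR's quasi-likelihood test, adjusted p under 0.05) set apart 10 of the protocadherin genes. Between P1 and P6 the log2 difference cKO minus WT moved by -1.82 for *Pcdhb9*, -2.54 for *Pcdhb15*, -1.60 for *Pcdhb16*, -1.64 for *Pcdhb17*, -1.44 for *Pcdhb20* and -8.16 for *Pcdhga9*. Between P1 and P8 it moved by -2.26 for *Pcdhb7*, -2.77 for *Pcdhb9*, -4.49 for *Pcdhb13*, -2.02 for *Pcdhb16*, -1.89 for *Pcdhb17*, -0.89 for *Pcdhb18*, -2.08 for *Pcdhb20* and -0.96 for *Pcdhga6*. Between P6 and P8 the term of *Pcdhga6* was -0.98. All 15 terms were negative, the 3 contrasts share libraries, and 7 of the 15 kept their call in every alternative fit, 2 of them (*Pcdhb16* and *Pcdhb17*) between P1 and P6 and 5 between P1 and P8. The term of *Pcdhga9* moved between -9.38 and -4.91 when a library was left out.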

How the results depend on the processing

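With 2 libraries a group, calls of single genes near the threshold were the least stable. Over the 12 comparisons 89 calls of protocadherin genes were made, and 41 remained in every alternative fit. Leaving out each library in turn (edgeR's quasi-likelihood test, the lone library being assumed to vary like the other groups) gave 0 to 4 members called between genotype labels at P1, 6 to 11 at P6 and 11 to 19 at P8, against 1, 9 and 18 with all libraries; 11 was reached without either P8 cKO library, 4 without P1 WT replicate 2, and 0 without P1 cKO replicate 2 or either P6 WT library. Interaction terms gave 3 to 6 calls between P1 and P6 (3 without P1 cKO replicate 2 or P6 cKO replicate 1), 1 to 4 between P6 and P8 (4 without P1 WT replicate 2), and 5 to 13 between P1 and P8 (5 without P8 cKO replicate 1, 13 without P1 WT replicate 1). In the WT-labelled cultures the steps gave 6 to 10 calls from P1 to P6, 7 to 11 from P6 to P8 and 13 to 17 from P1 to P8, and in the cKO-labelled cultures 2 to 7 (2 without P1 cKO replicate 2), 2 to 6 (2 without P6 cKO replicate 2) and 3 to 6 (3 without P1 cKO replicate 2). Without P6 WT replicate 1 the change of *Pcdhga1* from P1 to P6 turned to -0.11 (4.01 without P6 WT replicate 2) and from P6 to P8 to 0.17 (-3.95), and that of *Pcdhgb2* from P6 to P8 to 0.23 (-3.35); the counts in that library were 104 CPM (*Pcdhga1*) and 207 CPM (*Pcdhgb2*) against 5.96 and 17.4 CPM in the other.

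The P1 count of 1 became 2 with a mean of at least 1 CPM, 6 with DESeq2, 3 when P1 was fitted alone, 8 with an unadjusted p, and 0 when only members with replicates within 3-fold were counted, an alternative chosen after seeing the data. An unadjusted p gave 15 calls at P6, 10 interaction calls between P1 and P6, 8 between P6 and P8 (against 5 with DESeq2, 2 with the higher filter and 1 otherwise), 13 and 16 WT-labelled steps from P1 to P6 and P6 to P8 (14 from P1 to P6 with DESeq2), and 8, 7 and 10 cKO-labelled steps from P1 to P6, P6 to P8 and P1 to P8 (9, 7 and 9 with DESeq2). A fold change of at least 2 left 3 cKO-labelled steps from P1 to P6 and 2 from P6 to P8, and members with replicates within 3-fold gave 3 from P1 to P6 and 3 from P1 to P8. The causes of these differences were not tested. The log2 ratio of the *Pcdhb* sums at P6 was -0.46 over 15 genes and -0.99 over the 12 without *Pcdhb19*, *Pcdhb21* and *Pcdhb22*. The median share of *Pcdhb17* in its array was 16.6% per exonic length and 15.4% of raw counts. DESeq2 size factors and no filter on low counts kept every count within 1.5 times.

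Replicate numbers did not pair the libraries, since the 15 correlations of deviations between same-numbered libraries lay between -0.04 and 0.07. With the replicate block 0 members were called at P1, 9 at P6 and 18 at P8, and the other counts stayed within 1.5 times.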
